A study of Mus musculus with 4 samples.

Results

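Rbp4 and 8 genes of retinoid signaling (Stra6, Rdh10, Aldh1a1, Rara, Rarb, Rarg, Rxra and Rxrb) were followed in c-Kit+ cells of acute myeloid leukemia (AML). The genes were listed by symbol and matched through their Ensembl identifiers to the 23552 genes of the expression table, and 8 of the 9 were found. Stra6 was not analysed here. The list was drawn up with the difference in Rbp4 between the groups already known, so the values of the listed genes in this comparison are given as a description, with no p-value, and whether the threshold used for all genes was passed is stated only as a count.

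The study asked what restored expression of Suv39h1, a histone methyltransferase of heterochromatin, changes in the transcriptome of MLL-AF9 leukemia. The cells came from the bone marrow of moribund C57BL/6 mice with AML driven by the fusion gene MLL-AF9, and were enriched for c-Kit, a surface receptor of immature blood cells. The control group carried control-eGFP overexpression and the SUV-OE group carried Suv39h1-eGFP overexpression, from the plasmid MSCV-IRES-EGFP by lentiviral transduction of the leukemia cells, and each group had 2 libraries. All 4 libraries therefore shared the MLL-AF9 leukemia, the transplantation into sublethally irradiated hosts and the eGFP sort, and wild-type mice of the study were females of 8 weeks. The labels do not say how many mice stand behind each library, so the spread between the 2 libraries of a group may be technical in part. They were named control replicates 3 and 4 and SUV-OE replicates 2 and 3.

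Retinol, or vitamin A, travels in the blood on the carrier protein Rbp4, which is bound to transthyretin (Ttr) and is made mainly by hepatocytes and adipocytes. Stra6 takes retinol into cells, retinol dehydrogenases such as Rdh10 oxidize it to retinal, and the retinaldehyde dehydrogenases of the Aldh1a family make retinoic acid from retinal. Retinoic acid binds the receptors Rara, Rarb and Rarg, which sit on DNA as dimers with an RXR partner (Rxra, Rxrb or Rxrg), and enzymes of the Cyp26 family clear it. In myeloid cells retinoic acid promotes granulocyte maturation, and RARA is the gene fused in acute promyelocytic leukemia.

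The start regions of Rbp4 are shown because Rbp4 carried the largest difference among the listed genes. Sequences are those of RefSeq on the assembly GRCm38.p6, read 5′ to 3′ on the strand of the gene, and 8 of the 9 listed genes had an entry, all but Rdh10. Rbp4 lay on the minus strand of chromosome 19 (chr19:38116629-38125281, ENSMUSG00000024990), and RefSeq gave it 2 start sites. The first stretch is the 250 bases before the outer start (chr19:38125322-38125571), upstream of the annotated gene. The second is the 100 bases before the inner start (chr19:38124812-38124911), in an intron of transcripts from the outer start, with the letters TATAAA in capitals, the first of them 28 bases before the start.
Rbp4 outer start: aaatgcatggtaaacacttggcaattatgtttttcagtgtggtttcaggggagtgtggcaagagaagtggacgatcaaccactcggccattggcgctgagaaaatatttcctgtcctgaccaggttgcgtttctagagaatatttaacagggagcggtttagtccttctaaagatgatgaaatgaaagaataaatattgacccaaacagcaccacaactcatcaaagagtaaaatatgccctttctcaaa
Rbp4 inner start: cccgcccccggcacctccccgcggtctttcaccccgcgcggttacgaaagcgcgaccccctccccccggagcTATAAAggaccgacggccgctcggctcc
TATAAA was found on either strand in 13.6% of 32851 start windows of 300 bases (250 before and 50 after a start), and among the listed genes only the inner window of Rbp4 held it.

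The start region of Ffar4, the closest tested neighbour of Rbp4, is shown because Ffar4 was also lower in SUV-OE (250 bases before its start, plus strand, chr19:38096829-38097078). It did not hold TATAAA.
Ffar4 start: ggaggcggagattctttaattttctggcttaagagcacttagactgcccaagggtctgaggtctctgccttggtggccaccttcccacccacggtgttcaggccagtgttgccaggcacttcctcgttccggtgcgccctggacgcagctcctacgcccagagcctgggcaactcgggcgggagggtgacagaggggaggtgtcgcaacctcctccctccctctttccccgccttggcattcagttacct

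Receptor dimers bind direct repeats of a short half-site, and retinoic acid target genes can carry such a repeat next to their start. Windows were searched on both strands for GTTCA repeated after a gap of any 6 bases, present in 25 of the 32851 windows (0.0761%), and for AGGTCA repeated after a gap of any 5 bases, present in 3 (0.00913%). Of the listed genes only Rarb held the first, and none held the second. Of 52 genes with an entry in a wider list of 69 retinoid genes, only Cyp26a1 held the first. The matches are shown in capitals with 7 bases on either side, for Rarb on the minus strand (chr14:16575506-16575535) and for Cyp26a1 on the plus strand (chr19:37697769-37697798), where the letters run on the opposite strand.
Rarb start: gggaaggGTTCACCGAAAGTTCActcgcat
Cyp26a1 start: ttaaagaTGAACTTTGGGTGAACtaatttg
Both genes were at the edge of detection in these cells, as given with their values.

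Expression was given as FPKM, a fragment count corrected for transcript length and library size, so levels may be compared between genes. A FPKM value was also turned back into reads with the exon length of the gene. The libraries had scaling totals of 16873770 to 19453058 reads, at which 3 reads on a transcript of 1 kb gave 0.154 to 0.178 FPKM. Differences were tested with limma on log2(FPKM + 1) over 13736 genes that averaged 0.5 FPKM or more, and a differentially expressed gene (DEG) had a Benjamini-Hochberg adjusted p below 0.05 and a log2 fold change of at least 1 in size. The pseudocount of 1 understates the change of genes with few reads.

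Suv39h1 was at 12.4 FPKM in both control libraries and at 75.3 and 81.2 FPKM in the SUV-OE libraries (log2 fold change 2.56 ± 0.11, SE; limma adjusted p = 0.00866), in the direction of the labels. Kit was at 20.4 and 19.2 FPKM in control and at 28.6 and 25.4 FPKM in SUV-OE. The 8 markers of leukemic progenitor cells, among them Mpo, Cd34 and Hoxa9, summed to 606.3 to 672.7 FPKM over the 4 libraries, mostly from Mpo and Fcgr3, and none was a DEG. Both SUV-OE libraries were above both controls for 3 of the 8 and below for 3 (25.4% and 28.4% of all genes tested), among the latter Flt3, a receptor of progenitors, at 10.3 and 9.08 FPKM in control and at 6.20 and 4.18 FPKM in SUV-OE.

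Rbp4 was well expressed in control and nearly absent from SUV-OE cells. It was at 8.05 FPKM (203 reads) in control replicate 3 and at 13.3 FPKM (290 reads) in control replicate 4. It was at 0.130 FPKM (3 reads) in SUV-OE replicate 2 and at 0.0867 FPKM (2 reads) in SUV-OE replicate 3. The SUV-OE libraries were far below both controls, and their values were at the level of 3 reads. The log2 fold change was -3.36 ± 0.25 (SE), the third lowest of the 13736 genes tested. In reads scaled to the library totals, control was 96.4 times SUV-OE, with a 95% interval of 41.0 to 298.3 from counting error alone (493 against 5 reads). In bulk RNA, fewer cells that express a gene and less RNA per cell cannot be told apart.

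Of the 7 listed genes that passed the filter on low values, Rbp4 was the only DEG, beside 1.22% of all genes tested (0.408% for DEGs lower in SUV-OE). Rbp4 passed that filter only through its control libraries. At an adjusted p below 0.1, a threshold applied to the list after its values were seen, Aldh1a1 was counted besides, beside 2.49% of all genes tested. Since the list was chosen with these differences known, nothing is read from either count. Both SUV-OE libraries were above both controls for Rarg and Aldh1a1 and below both for Rbp4 and Rara, patterns met by 25.4% and 28.4% of all genes tested. For Rxra, Rxrb and Rdh10 the groups overlapped, and Rarb was below the filter.

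**Figure D1:**
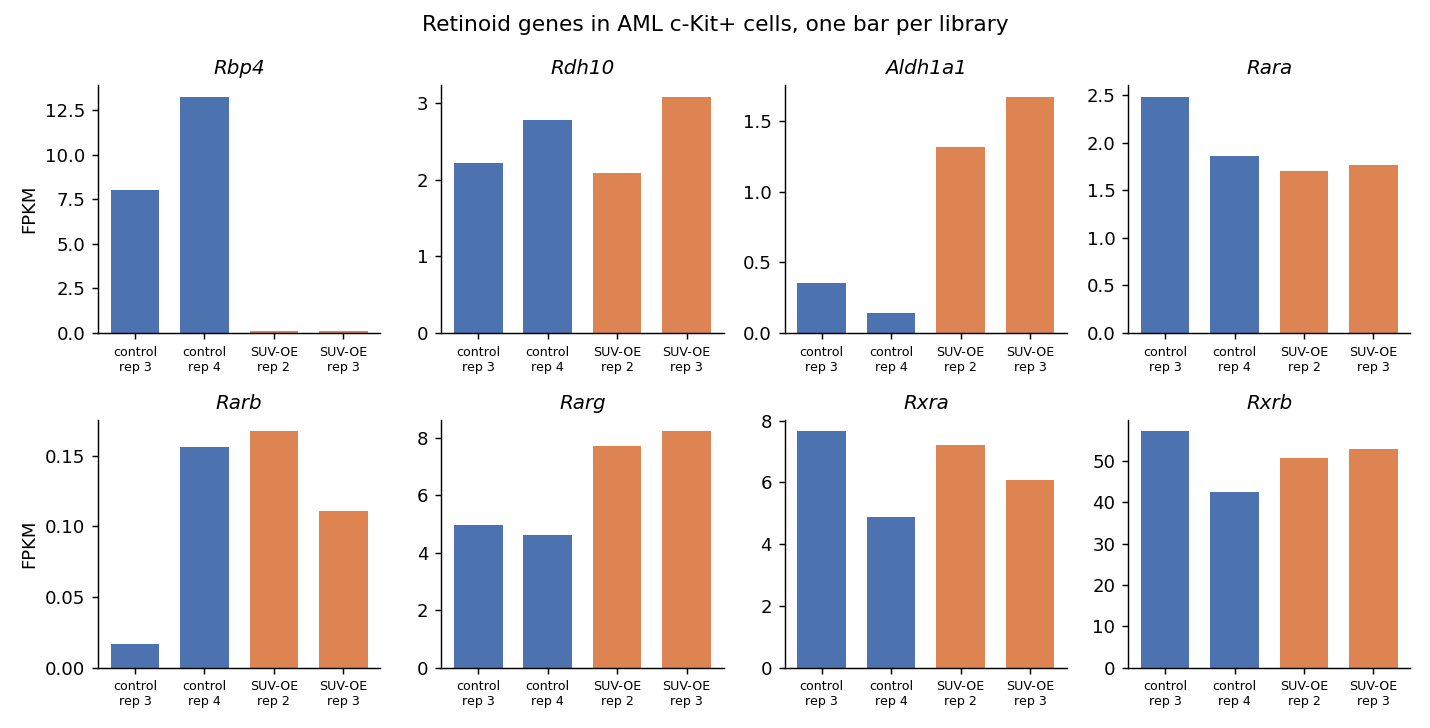
FPKM of the 8 retinoid genes in each library (vertical axis, its own scale for each gene, from 0), with control replicates 3 and 4 in blue and SUV-OE replicates 2 and 3 in orange. Rbp4 bars fall from 8.05 and 13.3 to 0.130 and 0.0867 FPKM, Aldh1a1 and Rarg bars are taller in both SUV-OE libraries, and those of Rdh10, Rxra and Rxrb overlap between the groups.

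Among the enzymes, Rdh10 (chr1:16105774-16133734, plus strand) catalyzes the first oxidation step. Its levels were 2.22 and 2.78 FPKM in control and 2.09 and 3.08 FPKM in SUV-OE. The libraries of the groups were interleaved, with a log2 fold change of 0.02 ± 0.20 (SE; 95% interval -0.49 to 0.54).

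Aldh1a1, which makes retinoic acid from retinal, was low in control and higher in both SUV-OE libraries. It lies on the plus strand of the same chromosome as Rbp4 (chr19:20492715-20643465). It was at 0.351 and 0.144 FPKM (14 and 5 reads) in control and at 1.32 and 1.67 FPKM (48 and 61 reads) in SUV-OE. The groups did not overlap, and the log2 fold change was 1.001 ± 0.19 (SE). Aldh1a1 passed the filter on low values only through its SUV-OE libraries. In scaled reads SUV-OE was 5.87 times control (95% interval 3.58 to 10.1, counting error alone), and with a pseudocount of 0.1 the log2 fold change was 2.26, so the size of the change depended on the pseudocount. A noncoding gene and a pseudogene on the other strand overlap the annotated span of Aldh1a1, and the library kit does not mark strand.

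The retinoic acid receptors were led by Rarg, the receptor known for its part in hematopoietic stem cell self-renewal. Rarg (chr15:102234938-102257517, minus strand) was at 4.95 and 4.62 FPKM in control and at 7.73 and 8.23 FPKM in SUV-OE. The SUV-OE libraries were higher by more than the distance between replicates. The log2 fold change was 0.63 ± 0.12 (SE), and in scaled reads SUV-OE was 1.66 times control (95% interval 1.51 to 1.83, counting error alone).

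Rara (chr11:98927818-98974942, plus strand), the receptor fused in promyelocytic leukemia, was at 2.48 and 1.86 FPKM in control and at 1.70 and 1.77 FPKM in SUV-OE. Both SUV-OE libraries were lower, but control replicate 4 was nearer to them than to control replicate 3 (log2 fold change -0.21 ± 0.16, SE). Rarb (chr14:16430839-16819156, minus strand), itself a target of retinoic acid and the gene with the direct repeat shown above, was barely detected, with 1 and 8 reads in the control libraries and 9 and 6 reads in those of SUV-OE (0.0169, 0.156, 0.167 and 0.111 FPKM). Its span is overlapped by Top2b on the other strand. At this depth no difference in Rarb was detectable.

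As a share of the summed FPKM of the 3 receptors, Rarg made up 66.5% and 69.6% in the control libraries and 80.5% and 81.4% in the SUV-OE libraries. The share of Rara was 33.3% and 28.1% in the control libraries and 17.7% and 17.5% in those of SUV-OE, and Rarb gave 0.227% to 2.36% in all 4. The summed level of the 3 receptors was 7.46 and 6.63 FPKM in control and 9.61 and 10.1 FPKM in SUV-OE. The receptor pool was thus larger in both SUV-OE libraries and held a larger part of Rarg.

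Rxrb was the most abundant gene of the list in both groups, and neither RXR partner separated the groups. Rxrb (chr17:34031812-34038399, plus strand) was at 57.1 and 42.5 FPKM in control and at 50.7 and 52.8 FPKM in SUV-OE (log2 fold change 0.07 ± 0.18, SE; 95% interval -0.39 to 0.52). Rxra (chr2:27676440-27762957, plus strand) was at 7.65 and 4.87 FPKM in control and at 7.22 and 6.07 FPKM in SUV-OE (0.10 ± 0.22; 95% interval -0.48 to 0.68). In both genes the control libraries lay on either side of both SUV-OE libraries. Rxrb made up 87.5% to 89.7% of the RXR level in each library, and Rxrg was not analysed here. The RXR level was 8.68 and 7.15 times the summed RAR level in the control libraries, against 6.03 and 5.83 times in those of SUV-OE.

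By mean FPKM, the order of the genes in control was Rxrb (49.8), Rbp4 (10.6), Rxra (6.26), Rarg (4.78), Rdh10 (2.50), Rara (2.17), Aldh1a1 (0.247) and Rarb (0.0866). The libraries of Rxra and Rarg overlapped in that order, as did those of Rdh10 and Rara, and of Aldh1a1 and Rarb. In SUV-OE the order was Rxrb (51.7), Rarg (7.98), Rxra (6.64), Rdh10 (2.58), Rara (1.73), Aldh1a1 (1.49), Rarb (0.139) and Rbp4 (0.109), and only the libraries of Rarb and Rbp4 overlapped with a neighbour in the order. Rbp4 was thus the second most abundant of the 8 genes in control and the least abundant in SUV-OE.

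The surroundings of Rbp4 on chromosome 19 were then described, since the selection did not use the neighbouring genes. Of 48 annotated genes whose start lay within 1 Mb of the Rbp4 start, 23 besides Rbp4 had values, 14 of these passed the filter and 12 of the 14 were protein-coding. Ffar4 was the only DEG among the 14, beside 0.408% of all genes tested for DEGs lower in SUV-OE.

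Ffar4 (chr19:38097071-38114263, plus strand, ENSMUSG00000054200) encodes a receptor for long-chain fatty acids. It is transcribed toward Rbp4, and the ends of both genes are 2365 bases apart. Ffar4 was at 2.47 and 2.43 FPKM (67 and 57 reads) in control and at 0.283 and 0.121 FPKM (7 and 3 reads) in SUV-OE. The SUV-OE values were below both controls by far more than the distance between replicates. The log2 fold change was -1.52 ± 0.16 (SE; limma adjusted p = 0.0405), and in scaled reads control was 12.1 times SUV-OE (95% interval 6.38 to 25.9, counting error alone). The call was lost without the filter on low values, which Ffar4 passed only through its control libraries, and with a pseudocount of 0.1, where the log2 fold change was -3.13. When any 1 of the 4 libraries was left out, no gene of the table was a DEG, Rbp4 and Ffar4 included, and their log2 fold changes were then -3.68 to -3.03 and -1.62 to -1.43.

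None of the other 11 protein-coding neighbours tested was a DEG, with log2 fold changes of -0.42 (Hells, a chromatin remodeler) to 0.31 (Tbc1d12) and limma adjusted p of 0.167 to 0.972. Of these, 4 had an unadjusted p below 0.05, all of them lower in SUV-OE (Exoc6, Cep55, Fra10ac1 and Hells), beside 20.7% of all genes tested. Values were below both controls in both SUV-OE libraries for 5 of them (Exoc6, Cep55, Fra10ac1, Slc35g1 and Hells) and above for 1 (Tbc1d12), beside 28.4% and 25.4% of all genes tested. For March5, Ide, Kif11, Hhex and Noc3l the groups overlapped. The closest of these on either side were Cep55, a protein of cytokinesis whose start lay 70.3 kb away on the Ffar4 side, at 11.8 FPKM in both controls and at 9.27 and 8.54 FPKM in SUV-OE, and Fra10ac1, 98.9 kb away on the other side, at 20.9 and 23.1 FPKM in control and at 16.6 and 16.4 FPKM in SUV-OE. Neither was a DEG (limma adjusted p = 0.173 for Cep55 and 0.167 for Fra10ac1).

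Several neighbours were below the FPKM filter. Myof, a protein of membrane repair whose start lay 81.7 kb away, was higher in SUV-OE, with 14 and 13 reads in control and 61 and 42 reads in SUV-OE, and was a DEG by limma-voom (log2 fold change 1.98, adjusted p = 0.0358). Pde6c, whose start lay 7499 bases from that of Rbp4, had 1 read in each control library and 0 in each SUV-OE library. Cyp26a1, the main retinoic acid hydroxylase, whose start lay 427.5 kb away and whose start window held the direct repeat, had 5 and 3 reads in control and 4 and 6 reads in SUV-OE. Its paralog Cyp26c1 had 0 reads in control and 2 and 1 reads in SUV-OE.

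**Figure D2:**
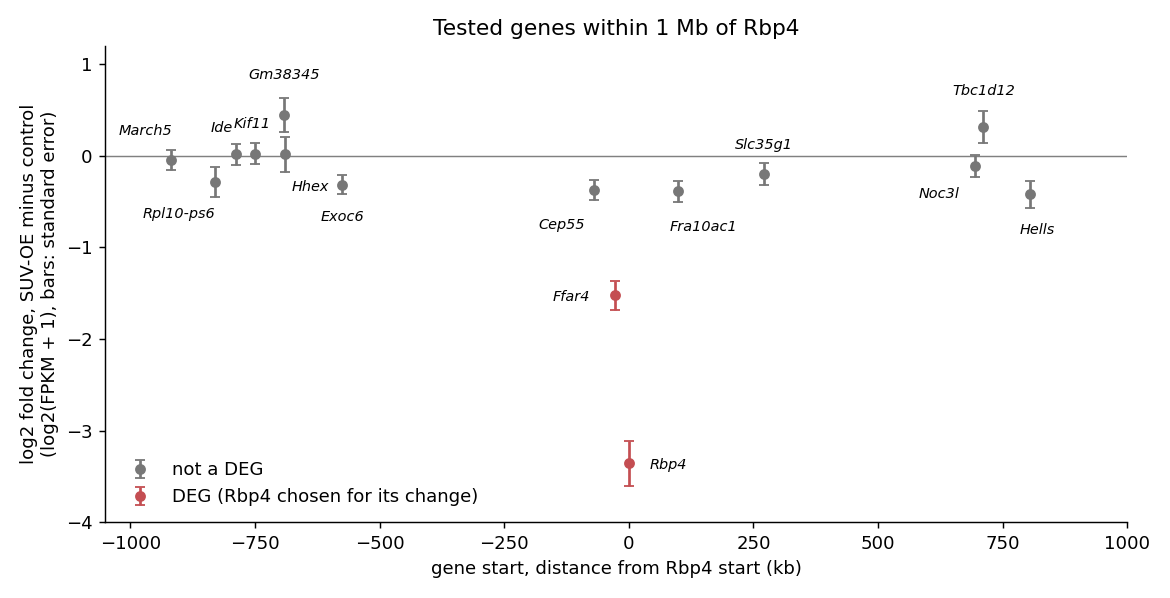
Log2 fold change (SUV-OE minus control, log2(FPKM + 1), bars are standard errors) of Rbp4 and the 14 tested genes whose start lies within 1 Mb, against the distance of their start from the Rbp4 start in kb. Rbp4 (-3.36) and Ffar4 (-1.52), in red, are DEGs, and the protein-coding genes in grey lie between -0.42 and 0.31.

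The tested genes with a pattern most like Rbp4 were ranked by the Euclidean distance over the 4 values of log2(FPKM + 1), as a description. They were Psma8 (distance 0.82), Gm15283 (0.89), Bhlhb9 (1.01), Slc13a5 (1.32) and Rbm44 (1.43), on 5 different chromosomes, none of them chromosome 19. Psma8, a proteasome subunit of the male germ line, was at 8.96 and 9.77 FPKM in control and at 0.366 and 0.698 FPKM in SUV-OE. Slc13a5, a citrate transporter, was at 9.57 and 9.39 FPKM in control and at 1.43 and 0.558 FPKM in SUV-OE. Their log2 fold changes were -2.77 to -2.35, which follows from their selection by likeness to Rbp4. Gm15283 is annotated as antisense, and any reads in exons shared with a gene on the other strand cannot be told apart in these libraries.

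The wider list held 69 other retinoid genes in 8 roles, of which 56 had values and 32 passed the filter. None of the 32 was a DEG by limma, beside 1.22% of all genes tested, and 10 had an unadjusted p below 0.05 (7 higher and 3 lower in SUV-OE), beside 20.7% of all genes. With limma-voom on the recovered reads 3 of 39 were DEGs (Dhrs9, Lpl and Nrip1), beside 5.32% of all genes. The median log2 fold change of the 32 was 0.12, and that of all genes was -0.02. Both SUV-OE libraries were above both controls for 12 of the 32 (25.4% of all genes tested), below for 10 (28.4%) and overlapping for 10. Below the filter, 24 more genes of the list had values, of which 8 were above both controls in both SUV-OE libraries, 4 were below and 12 overlapped (25.7% were above and 21.9% below among all 23552 genes, those over the filter included).

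Of the retinol and retinal oxidoreductases, 9 of 16 were tested, and both SUV-OE libraries were below both controls for 6 of them (28.4% of all genes tested) and above for 2 (25.4%). Dhrs9, a retinol dehydrogenase, was at 2.45 and 2.42 FPKM (204 and 175 reads) in control and at 1.12 and 0.854 FPKM (85 and 65 reads) in SUV-OE. Dhrs9 had a log2 fold change of -0.79 ± 0.15 (SE; limma adjusted p = 0.0942), and -1.23 by limma-voom, where it was a DEG (adjusted p = 0.031). Dhrs4, a retinal reductase and the most abundant of the 9, was at 34.2 and 35.1 FPKM in control and at 22.2 and 23.8 FPKM in SUV-OE (-0.57 ± 0.11, SE; limma adjusted p = 0.0956). Both genes were lower in both SUV-OE libraries, short of the threshold on limma. Dhrs3, which reduces retinal back to retinol, went the other way, at 2.13 and 2.63 FPKM in control and at 4.43 and 4.27 FPKM in SUV-OE (0.67 ± 0.14, SE; limma adjusted p = 0.108; limma-voom 0.97, adjusted p = 0.0397, below the fold change threshold). Rdh5, a retinol dehydrogenase, was also higher in both SUV-OE libraries, without passing the test (limma adjusted p = 0.289).

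The carriers were mostly below the filter, and 1 of 10 was tested. Fabp5, which can carry retinoic acid within cells, was at 3.88 and 7.18 FPKM in control and at 7.36 and 7.47 FPKM in SUV-OE (log2 fold change 0.41 ± 0.26, SE; limma adjusted p = 0.434). Control replicate 4 lay close to the SUV-OE libraries. Ttr, the plasma partner of Rbp4, was at 0.886 FPKM (21 reads) in control replicate 3, at 0.0462 FPKM (1 read) in SUV-OE replicate 2, and had 0 reads in the other two libraries.

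Transcripts of the other Aldh1a enzymes were low in all libraries. Aldh1a2 had 6 and 4 reads in control and 15 and 1 reads in SUV-OE, and Aldh1a3 had 6 and 10 reads in control and 6 and 5 reads in SUV-OE. Both overlapped between the groups, and Aldh1a1 was the most abundant Aldh1a gene in SUV-OE. Aldh1a7, a paralog of Aldh1a1, was at 0.846 and 0.918 FPKM in control and at 0.655 and 0.354 FPKM in SUV-OE (limma adjusted p = 0.385), and near-identical stretches of the paralogs could share reads. Of the clearance enzymes none of 3 was tested, and Cyp26b1 had 6 and 9 reads in control and 4 reads in each SUV-OE library.

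Of the genes of retinyl ester storage and carotenoid cleavage, 2 of 6 were tested. Lpl, a lipase that releases lipids and retinyl esters from lipoproteins, was at 0.453 and 0.635 FPKM in control and at 1.45 and 1.09 FPKM in SUV-OE (log2 fold change 0.55 ± 0.18, SE; limma adjusted p = 0.193; limma-voom adjusted p = 0.0413). Dgat1, which can esterify retinol, was at 25.3 and 29.0 FPKM in control and at 24.3 and 28.1 FPKM in SUV-OE. Lpl was thus higher in both SUV-OE libraries, a DEG with limma-voom only, and the Dgat1 libraries were interleaved.

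Of Rxrg and the dimer partners of RXR, taken as 1 role, 4 of 9 were tested. The liver X receptors Nr1h2 and Nr1h3, sensors of oxysterols, had the highest level and the largest difference of the 4. Nr1h2 was at 61.1 and 52.7 FPKM in control and at 45.6 and 49.9 FPKM in SUV-OE (-0.25 ± 0.14, SE; limma adjusted p = 0.381), and Nr1h3 was at 0.511 and 0.448 FPKM in control and at 1.28 and 0.872 FPKM in SUV-OE (0.48 ± 0.18; limma adjusted p = 0.238). The signs were opposite, and neither passed the test. Nr1h3 passed the filter on low values only through its SUV-OE libraries.

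All 12 co-regulators were tested, and both SUV-OE libraries were above both controls for 4 (25.4% of all genes tested), below for 1 (28.4%) and overlapping for 7. Ncor1, the corepressor of receptors without ligand, was at 30.7 and 26.9 FPKM in control and at 33.0 and 30.6 FPKM in SUV-OE (0.14 ± 0.13, SE; limma adjusted p = 0.569). Nrip1, a corepressor that binds receptors with ligand and is itself induced by retinoic acid, was at 0.337 and 0.243 FPKM (75 and 47 reads) in control and at 1.13 and 1.03 FPKM (230 and 209 reads) in SUV-OE. Its groups were well apart, with a log2 fold change of 0.69 ± 0.17 (SE; limma adjusted p = 0.133) and of 1.98 by limma-voom, where it was a DEG (adjusted p = 0.00851). Nrip1 passed the filter on low values only through its SUV-OE libraries.

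Of the retinoic acid target genes, 3 of 9 were tested. Uba7, the activating enzyme for the ubiquitin-like protein Isg15, was at 9.56 and 8.38 FPKM in control and at 14.1 and 14.5 FPKM in SUV-OE (log2 fold change 0.62 ± 0.12, SE; limma adjusted p = 0.0942). Cebpe, a transcription factor of granulocyte maturation, was at 236.8 and 242.0 FPKM in control and at 176.8 and 192.6 FPKM in SUV-OE (-0.37 ± 0.15; limma adjusted p = 0.262). Tgm2, a transglutaminase, was at 0.480 and 0.810 FPKM in control and at 1.44 and 1.38 FPKM in SUV-OE (0.56 ± 0.18; limma adjusted p = 0.188). Uba7 and Tgm2 were higher and Cebpe lower in both SUV-OE libraries, and none of the 3 was a DEG.

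**Figure D3:**
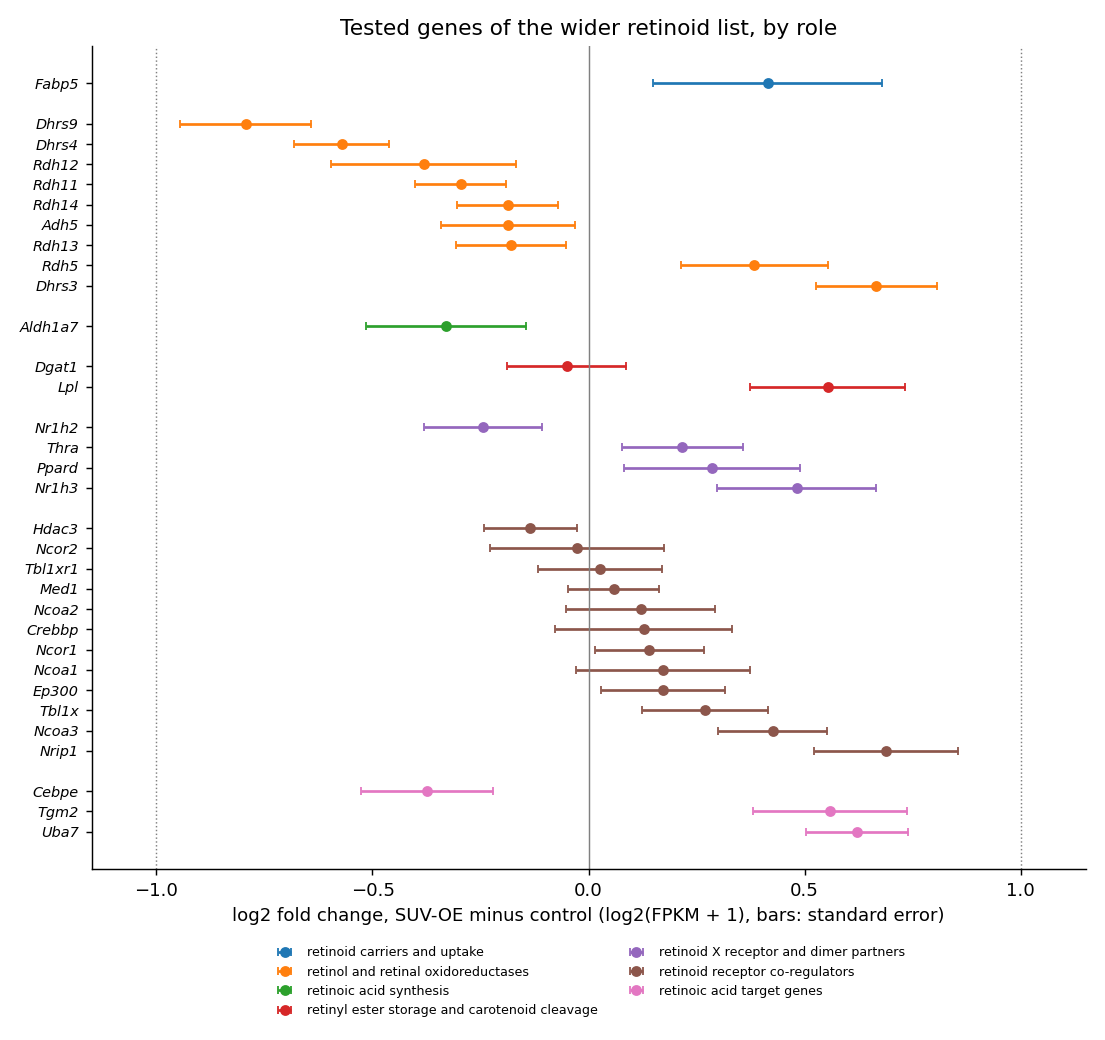
Log2 fold change (SUV-OE minus control, log2(FPKM + 1), horizontal axis, bars are standard errors) of the 32 tested genes of the wider retinoid list, grouped and coloured by role. Dotted lines mark a log2 fold change of 1 in either direction, and the genes lie between -0.79 (Dhrs9) and 0.69 (Nrip1), with genes on either side of 0 in each role with more than 1 tested gene.

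Because Rbp4 is best known from hepatocytes and adipocytes, markers of other cells were set beside it. The 8 hepatocyte markers summed to 7.97 FPKM in control replicate 3 and to 0.943 to 1.35 FPKM in the other 3 libraries, and neither of the 2 that passed the filter was a DEG. Both SUV-OE libraries were below both controls for 4 of the 8 and above for none (21.9% and 25.7% of all 23552 genes). Apoa1 had 10 and 1 control reads, and Cyp2e1 had 5 and 2. The defining gene Alb was at 4.96 FPKM in control replicate 3, at 0.0253 FPKM in control replicate 4 and at 0 in both SUV-OE libraries. Without control replicate 3 the log2 fold change of Rbp4 was -3.68, and the part of hepatocytes in the Rbp4 values was not tested. Ttr had 21 reads in control replicate 3 and 1 in SUV-OE replicate 2.

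The adipocyte markers with values (5 of 8) summed to 1.88 and 3.87 FPKM in control and to 2.56 and 2.61 FPKM in SUV-OE, with overlapping ranges. Adipoq, which defines the type, was at 0.112 and 0.172 FPKM in control and at 0.204 and 0.244 FPKM in SUV-OE, on 3 to 6 reads. It and Retn, on 5 to 9 reads, were higher in both SUV-OE libraries, and no adipocyte marker was lower (25.7% and 21.9% of all 23552 genes). Markers of marrow stromal cells summed to 9.46 and 8.94 FPKM in control and to 10.4 and 7.17 FPKM in SUV-OE, most of it from Pdgfrb (5.57 to 8.56 FPKM). Of the 8 stromal markers, 3 (Cxcl12, Lepr and Bgn) were higher in both SUV-OE libraries and none was lower, beside the same shares of 25.7% and 21.9%, and Cxcl12, the chemokine of marrow stroma, was at 0.264 and 0.348 FPKM in control and at 0.724 and 0.619 FPKM in SUV-OE.

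Markers of other blood cells were summed in the same way. The 8 neutrophil markers summed to 959.4 and 2557 FPKM in control and to 6681 and 8116 FPKM in SUV-OE. Both SUV-OE libraries were above both controls for 7 of them (25.4% of all genes tested) and below for 1, Cebpe (28.4%). Of the 7, 1 was a DEG, Ltf (lactoferrin), beside 0.815% of all genes tested for DEGs higher in SUV-OE. Ltf was at 19.9 and 40.3 FPKM in control and at 211.9 and 241.0 FPKM in SUV-OE. The B-lymphoid markers summed to 18.6 and 27.6 FPKM in control and to 37.9 and 86.7 FPKM in SUV-OE. Of these, 7 of 8 were higher in both SUV-OE libraries and none was lower, against the same 25.4% and 28.4%. The macrophage markers summed to 130.6 and 157.7 FPKM in control and to 170.1 and 167.5 FPKM in SUV-OE (6 of 8 higher, against 25.7% of all 23552 genes). Of the macrophage markers 1 was lower in both SUV-OE libraries (21.9% of all 23552 genes). It was Vcam1, an adhesion molecule, at 48.2 and 52.2 FPKM in control and at 31.0 and 33.6 FPKM in SUV-OE. Erythroid markers summed to 12.6 and 115.0 FPKM in control and to 87.0 and 61.4 FPKM in SUV-OE, with both SUV-OE sums between the controls. Of the 8 erythroid markers, 5 were higher in both SUV-OE libraries and none was lower, beside 25.4% and 28.4% of all genes tested. The part of any of the cell types above in the values of Rbp4, Rarg, Aldh1a1 and the wider list was not tested.

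**Figure D4:**
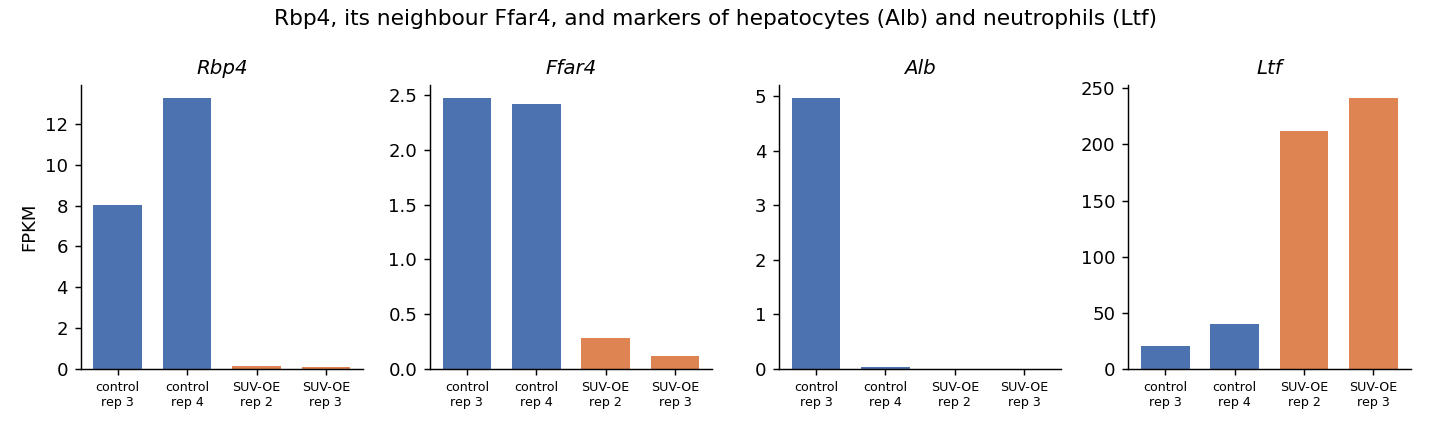
FPKM per library (vertical axis from 0, its own scale for each gene) of Rbp4, Ffar4, the hepatocyte marker Alb and the neutrophil marker Ltf, with controls in blue and SUV-OE in orange. Rbp4 and Ffar4 are higher in both controls, Alb is at 4.96 FPKM in control replicate 3 and near 0 in the other libraries, and Ltf is higher in both SUV-OE libraries.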

How the data were processed

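RNA-seq libraries of c-Kit+ leukemic cells were prepared with the TruSeq RNA kit v2, which does not mark strand. Per the labels and the study's methods, the authors processed reads with CASAVA 1.8, aligned them to mm10 with TopHat2 and computed FPKM with Cufflinks, and the deposited table holds these FPKM values for 23552 genes in 4 libraries. The annotation release is not given in the sources used here.

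Gene identifiers were matched to GENCODE M21 (23438 matched, 114 did not). FPKM divided by the step of 1 read gave whole reads (within 0.01) at the M21 exon length for 18498 genes (78.5%) and at another length for 4927, and 127 were not recovered. Such reads are known only up to a factor common to all genes, and intervals on them cover counting error only. The main test was limma 3.58.1 (R 4.3.3) with an intensity trend on log2(FPKM + 1), without covariates, over genes with a mean of at least 0.5 FPKM, since FPKM are not counts; it was tested on simulated data. P-values measure only the spread between these libraries.

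Named genes were the listed genes, Suv39h1, Kit, the 5 tested genes whose log2(FPKM + 1) values had the smallest Euclidean distance to those of Rbp4, tested coding genes within 1 Mb of it and, of the wider list, DEGs, the tested gene with the largest change and that with the highest level in each role, and Cyp26a1, Cyp26b1, Cyp26c1, Aldh1a2, Aldh1a3, Rxrg and Ttr. Other genes named were chosen after their values were seen. The listed genes, the wider list and the markers were chosen with earlier results of these data known. Alternatives covered the pseudocount, the filter, the scaling, the variance trend, limma-voom on recovered reads, the thresholds and each library left out.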

Additional observations from a re-analysis of the deposited data

How the results depend on the processing

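With 2 libraries a group, the number of calls rested on every library. Leaving out any 1 library (a lone library was then assumed to vary like the other group) left 0 DEGs by limma in either direction, 0 of the retinoid genes and 0 neighbours of Rbp4 called, with 1146 to 3895 genes at an unadjusted p below 0.05. Without the filter on low values (23552 genes tested) there were also 0 DEGs in either direction, 0 listed genes and 0 neighbours called, with 4177 genes at an unadjusted p below 0.05. With a pseudocount of 0.1 there were 74 DEGs higher in SUV-OE in place of 112, and 0 neighbours of Rbp4. Limma-voom on recovered reads gave 753 DEGs in place of 168, of which 618 were higher and 135 lower (82.1% higher, against 66.7%), with 3 genes of the wider list, 2 listed genes (Rbp4 and Aldh1a1) and 2 neighbours (Ffar4 and Myof, the latter below the FPKM filter). At an adjusted p below 0.1 there were 342 DEGs (249 higher, 93 lower), and 2 listed genes, Rbp4 and Aldh1a1, a setting chosen after seeing the data for the listed genes. The cause of these shifts was not tested. Over 20 named genes and 12 settings, 216 of 235 log2 fold changes kept their direction and their side of the threshold (or, for the listed genes, moved by less than the spread between replicates), 3 gained a call with limma-voom (Dhrs9, Lpl and Nrip1), 6 lost it (all of Ffar4), 6 moved by more (Rbp4, Rarg and Aldh1a1, with a pseudocount of 0.1 and with limma-voom), and 4 reversed, all of Dgat1, which was near 0 (0.0725 with quantile normalization, 0.0356 with limma-voom, and -0.1515 to 0.0497 with 1 library left out). Within the spread between replicates, the sign also changed for Rxra (-0.18 without control replicate 4, -0.01 without SUV-OE replicate 2), Rxrb (-0.14 without control replicate 4) and Rdh10 (-0.08 with quantile normalization, -0.09 without control replicate 3, -0.18 without SUV-OE replicate 3). Rbp4 was at -5.65 with a pseudocount of 0.1 and at -6.23 with limma-voom. No paired analysis was possible because replicate 3 is the only number found in both groups. At this depth, a transcript of 1 kb at 0.154 to 0.178 FPKM had 3 reads.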

Other observations

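Genes of the wider list below the FPKM filter were not in the limma test, and those named here were chosen after their values were seen. Of the retinoic acid target genes, Cd38, a surface enzyme of myeloid cells, had 6 and 17 reads in control and 31 and 49 reads in SUV-OE, and Asb2, a subunit of a ubiquitin ligase, had 8 and 11 reads in control and 32 and 20 reads in SUV-OE. Both were higher in both SUV-OE libraries, and neither passed limma-voom (adjusted p = 0.0821 for Cd38 and 0.129 for Asb2). Crabp2, which delivers retinoic acid to the receptors, had 5 and 1 reads in control and 0 reads in SUV-OE. At such counts a difference of a few reads is within counting error. Thrb, a thyroid hormone receptor and RXR partner, had 13 and 10 reads in control and 25 and 94 reads in SUV-OE, so that 1 library held most of its reads (limma-voom adjusted p = 0.135).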
